A study of Mus musculus with 18 samples.

Results

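The response of regulatory T cells to a tumour was compared with that of conventional CD4+ T cells by a difference of differences: tumour minus spleen in Treg, less tumour minus spleen in Tconv. The probes examined were those that carry a gene name and whose detection p-value, the deposited test of a probe against background, was below 0.05 in 3 or more of the series' 18 arrays, which gave 22409 of 46237 probes and 14581 genes. That choice set no group against another, but a probe could enter through detection in 1 group alone, as a probe of Sh3bgrl2 did through spleen Treg. The 4 groups were tumour Treg, spleen Treg, tumour Tconv and spleen Tconv, with 3 arrays each, and tumour and spleen CD8+ T cells, also with 3 arrays each, entered the same model. All cells came from female C57BL/6 mice of the genotype Foxp3-GFP-DTR-CD90.1, which joins a Foxp3 reporter with GFP and the diphtheria toxin receptor to the CD90.1 form of Thy1, so that every group, spleen included, carried it. Each mouse had received 50000 B16F10 melanoma cells, a transplantable pigment cell tumour line of the same strain, under the skin, and tumour and spleen were taken at a tumour diameter of about 10 mm. Spleen cells are therefore from tumour-bearing mice, and mice without a tumour were not analysed here. Cells were pooled before sorting by flow cytometry. Treg were sorted as CD4+, CD25+ and Foxp3+, Tconv as CD4+ and Foxp3-, and both without CD8 and CD11b. The labels state neither the age of the mice nor whether the 3 replicates came from different mice, so the p-values speak only of the spread among these arrays, which may be technical.

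Treg are CD4+ T cells that hold the transcription factor Foxp3 and restrain other lymphocytes through cytokines such as interleukin 10, through inhibitory receptors and by consuming interleukin 2. In tumours they gather together with activated Tconv, and both kinds of cell meet antigen, low oxygen and inflammatory signals there. A difference of differences asks which genes respond to the tumour in Treg by more or by less than in Tconv. The same number also reads as the gap between Treg and Tconv within the tumour, less that gap within the spleen.

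RNA (2.5 ng a sample) was amplified and labelled with biotin for Illumina BeadChips. Values are log2 intensities after background correction with an offset of 16 and quantile normalization, with a floor near 4 and a lowest detected level of 4.21 to 4.24, so that differences of dim genes are compressed. Each of the 3 BeadChips held 1 array of every group at a fixed position, and group and position cannot be told apart. Mean raw signal ran from 135 to 156 on tumour Treg arrays, against 117 to 143 on the other 9 arrays of the comparison, and its part in the results was not tested. The precision is limited by 3 arrays in each group: the median standard error was 0.33 for the difference of differences, against 0.24 for a tumour effect in 1 cell type, and the median 95% interval reached 0.71 to each side. Tests are those of limma with Benjamini-Hochberg adjustment over all 22409 probes and a threshold of 0.05. Where a gene had several detected probes, the one with the highest mean stands for it unless another is named. Values after ± are standard errors.

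The sorting markers were examined first. Foxp3 had 4 detected probes, of which 1 separated the cells. On that probe Foxp3 was at 9.30, 9.32 and 9.12 in tumour Treg, 8.52, 8.24 and 8.27 in spleen Treg, 4.16, 4.36 and 4.17 in tumour Tconv and 4.11, 4.34 and 4.11 in spleen Tconv. All 6 Treg arrays lay above all 6 Tconv arrays, and tumour Treg lay above spleen Treg. The difference of tumour effects on this probe was 0.86 ± 0.18 (SE) with an adjusted p of 0.085. With the BeadChip number as a term in the model (the replicate block) the adjusted p was 0.13. It passed with no background correction, an offset of 50, the authors' normalized table, median scaling or no detection filter (adjusted p = 0.00239, 0.00188, 0.00269, 0.0103 and 0.0428). The brightest Foxp3 probe did not separate Treg from Tconv, and its difference of tumour effects was -0.20 ± 0.40. Cd4, the coreceptor of both cell types, gave 0.05 ± 0.24 and on a dimmer probe -0.60 ± 0.35, and Thy1, whose product is CD90, gave 0.38 ± 0.21. Neither passed. The genes of the sorted surface proteins CD25 (Il2ra) and CD11b (Itgam) stayed close to the floor throughout, with differences of 0.17 ± 0.18 and 0.10 ± 0.22, Cd8b1 gave 0.82 ± 0.60, and Cd8a had no detected probe among those tested.

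The tumour effects of Treg and Tconv differed past the test on 26 of 22409 probes (0.116%), 13 higher (0.058%) and 13 lower (0.058%), which belong to 22 genes. Counted on 1 probe a gene, 19 of 14581 genes passed (0.13%), and Lmna, Hspa1a and Gm4956 passed on a dimmer probe only. All 26 probes had 1 sign on the 3 BeadChips, a description only, since the test picked them on these same arrays. Scaling the arrays by their medians moved the median difference of all probes to 0.12, and 43 probes were then higher and 9 lower. Leaving out 1 array gave 14 to 36 probes. Leaving out a whole BeadChip gave 7 without replicate 1, of which 5 were among the 26, all of them lower, and 0 without replicate 2 or 3. At an unadjusted p under 0.05 there were 1391 probes (6.21%) with all arrays, and 1192 and 1234 without replicate 2 and 3. In Treg the tumour effect itself was called on 500 probes (2.23%), 348 of them higher (1.55%) and 152 lower (0.678%) in the tumour, and in Tconv on 230 (1.03%), 193 of them higher (0.861%) and 37 lower (0.165%). In CD8 cells it was called on 222 (0.991%), 170 of them higher (0.759%) and 52 lower (0.232%). Between Treg and Tconv, 99 probes were called in both, 98 with the same sign. Of the 401 probes called in Treg alone, 329 had the same sign in Tconv and 18 differed past the test, and of the 131 called in Tconv alone, 111 had the same sign in Treg and 7 differed past the test. An effect called in 1 cell type was therefore in most cases not shown to differ between them.

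**Figure D1:**
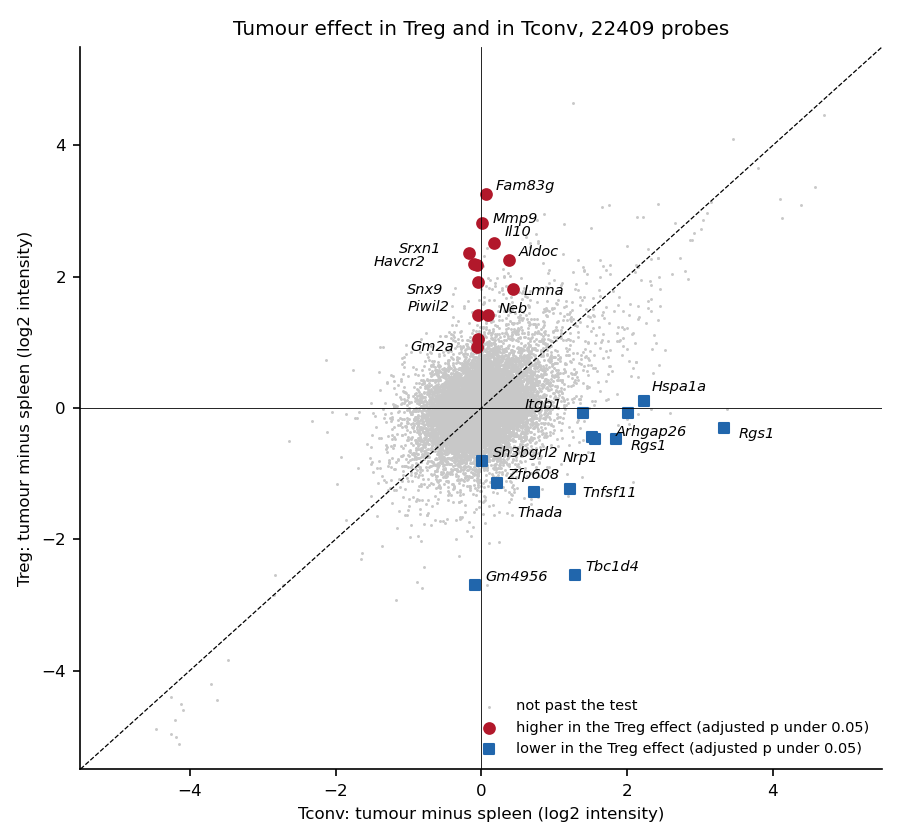
Each point is 1 of 22409 probes, with the tumour effect in Tconv on the horizontal axis and that in Treg on the vertical axis (tumour minus spleen, log2 intensity, 3 arrays a group) and equal effects on the dashed line. The 13 probes past the test above the line stand over Tconv effects of -0.16 to 0.44 with Treg effects of 0.93 to 3.26. The 13 below it spread from a Tconv rise at the right (Rgs1) to a Treg fall at the bottom (Gm4956, Tbc1d4).

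The 13 probes with a larger effect in Treg, of 11 genes, shared 1 shape. On all 13 the Treg effect was called as a rise, on 0 the Tconv effect was called, and on 0 the effect in CD8 cells was. Within the tumour Treg exceeded Tconv past the test on 13 of 13 probes, against 533 of all probes (2.38%), 367 of them higher (1.64%) and 166 lower (0.741%). Within the spleen Treg exceeded Tconv on 2, those of Il10 and Neb, against 310 of all probes (1.38%), 212 of them higher (0.946%) and 98 lower (0.437%). These counts describe probes that the difference itself selected. The part of macrophage RNA was not tested: the summed intensity of 22 macrophage and monocyte markers was 2232 to 3959 in tumour Treg and 580 to 1504 in spleen Treg, and 2157 to 4226 in tumour Tconv and 543 to 1320 in spleen Tconv. The tumour ranges of the 2 cell types overlap, as do the spleen ranges, and 0 of the 22 differed in tumour effect past the test. The sum of 11 dendritic cell markers was 640 to 1383 in tumour Treg and 331 to 1034 in spleen Treg, and 317 to 539 in tumour Tconv and 266 to 1151 in spleen Tconv. It was thus higher in tumour Treg than in tumour Tconv on all arrays, 2 of the 11 were detected on no tumour Treg array, and 0 differed in tumour effect past the test. Of the 11, 8 had a difference above 0. In tumour Treg 1 rose past the test, Zbtb46 (0.99 ± 0.20, adjusted p = 0.0136), and in tumour Tconv 0 did. Zbtb46 was detected on all 3 tumour Treg arrays and on no array of the other groups. The part of dendritic cell RNA in the results was not tested.

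Il10, an immunosuppressive cytokine of effector Treg, was at 7.60, 7.91 and 7.35 in tumour Treg, 4.75, 4.99 and 5.56 in spleen Treg, 4.11, 4.33 and 4.33 in tumour Tconv and 4.11, 4.06 and 4.08 in spleen Tconv. Tumour Treg stood alone, and spleen Treg lay above every Tconv array. As in any sorted bulk sample, more cells with the transcript and more transcript in each cell cannot be told apart. The difference of tumour effects was 2.35 ± 0.26 (adjusted p = 0.00145), with 2.84, 2.65 and 1.54 on the 3 BeadChips. In CD8 cells the tumour effect on Il10 was 0.02 ± 0.18.

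Havcr2 encodes TIM-3, an inhibitory receptor of effector T cells and Treg. Its brighter probe read 6.94, 6.47 and 6.37 in tumour Treg, 4.15, 4.84 and 4.21 in spleen Treg, 4.19, 4.21 and 4.09 in tumour Tconv and 4.19, 4.23 and 4.37 in spleen Tconv. It was detected on every tumour Treg array and on 2 of the 9 other Treg and Tconv arrays, 1 of spleen Treg and 1 of spleen Tconv. The difference was 2.29 ± 0.30 (adjusted p = 0.00331), and on the dimmer Havcr2 probe 2.23 ± 0.38 (adjusted p = 0.0327). The call of the dimmer probe held in only 1 of the 12 fits that each left out 1 array (adjusted p up to 0.0879). On the dimmer probe, not detected in spleen Treg or either Tconv group, tumour Treg exceeded spleen Treg at least 4.30-fold and tumour Tconv at least 4.23-fold. That fold is taken over the higher of the lowest detected level and the probe's own value on each array. Both probes were also detected on 2 tumour CD8 arrays and on no spleen CD8 array. The CD8 tumour effect was 0.53 ± 0.21 on the brighter probe and 0.62 ± 0.27 on the dimmer (adjusted p = 0.338 and 0.387).

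Aldoc, an isoform of the glycolytic enzyme aldolase, read 6.47, 6.74 and 6.59 in tumour Treg, 4.33, 4.42 and 4.29 in spleen Treg, 4.49, 5.06 and 4.69 in tumour Tconv and 4.39, 4.53 and 4.19 in spleen Tconv. The tumour Treg arrays lay more than 1 log2 unit above all others. Its difference was 1.88 ± 0.22 (adjusted p = 0.0016), and a dimmer Aldoc probe gave 0.79 ± 0.25 (adjusted p = 0.446). The calls of Il10, Aldoc and the brighter Havcr2 probe held without each of the 12 arrays in turn. All were lost whichever of the 3 BeadChips was left out (adjusted p up to 0.251, 0.197 and 0.197), in fits with 2 arrays in a group.

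Fam83g, a member of a family of casein kinase 1 anchoring proteins, had the largest difference of the 13. It read 9.06, 7.56 and 7.90 in tumour Treg, 5.50, 4.13 and 5.09 in spleen Treg, 4.11, 4.10 and 4.51 in tumour Tconv and 4.35, 4.13 and 4.07 in spleen Tconv. The groups of tumour Treg and of all others did not overlap, and the difference was 3.20 ± 0.49 (adjusted p = 0.0168). The call was lost without tumour Tconv replicate 2 or spleen Tconv replicate 1 (adjusted p up to 0.0546), and with the 12 arrays alone (0.0799).

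Srxn1, sulfiredoxin, an enzyme that repairs oxidised peroxiredoxins, read 7.31, 6.39 and 7.03 in tumour Treg, 4.39, 5.05 and 4.23 in spleen Treg, 4.30, 4.07 and 4.24 in tumour Tconv and 4.70, 4.24 and 4.17 in spleen Tconv. It was detected on no tumour Tconv array, and tumour Treg exceeded tumour Tconv at least 6.27-fold. The difference was 2.52 ± 0.38 (adjusted p = 0.0164), and it was lost without spleen Treg replicate 1 or 3, tumour Tconv replicate 2 or spleen Tconv replicate 1 (adjusted p up to 0.056).

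Mmp9, a matrix metalloproteinase known above all from neutrophils and macrophages, read 8.01, 7.57 and 6.96 in tumour Treg, 5.08, 4.65 and 4.35 in spleen Treg, 4.70, 5.25 and 4.56 in tumour Tconv and 5.39, 4.18 and 4.92 in spleen Tconv. The difference was 2.81 ± 0.45 (adjusted p = 0.0202). It was called without 4 of the 12 arrays and lost without each of the other 8 (adjusted p up to 0.0758), and with the 12 arrays alone (0.0821). It belongs to a list of 6 measured neutrophil markers, of which it alone passed. The summed intensity of the other 5 was 149 to 477 in tumour Treg and 90.4 to 191 in spleen Treg, and 96.5 to 315 in tumour Tconv and 99.6 to 255 in spleen Tconv. Camp was detected on no tumour Treg array, while Ltf and S100a9 were detected on all 3. Ltf was at 7.24, 4.37 and 4.60 in tumour Treg and was detected on no array of spleen Treg, tumour Tconv or spleen Tconv. S100a9 was at 7.97, 7.31 and 6.11 in tumour Treg and 6.74, 4.92 and 4.27 in spleen Treg. In Tconv S100a9 was at 7.78, 5.67 and 4.43 in the tumour and 7.33, 7.21 and 4.43 in the spleen. Of the 6 markers 5 had a difference above 0. The part of neutrophil RNA in the Mmp9 value was not tested.

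The other 5 genes were dimmer or rested on fewer settings. Snx9, a sorting nexin of endocytosis, differed by 1.97 ± 0.35 (adjusted p = 0.0382; 0.0964 with the replicate block). Piwil2, a PIWI protein best known from the germ line, differed by 1.45 ± 0.23 (adjusted p = 0.0176) and was detected on no Tconv array. Neb, nebulin, a protein of muscle thin filaments, differed by 1.32 ± 0.23 (adjusted p = 0.038; 0.0678 with the block). Gm2a, the activator protein of ganglioside breakdown in lysosomes, differed by 0.99 ± 0.17 (adjusted p = 0.038; 0.0797 with the block). Gm2a was bright in all groups and read 9.64, 9.76 and 9.71 in tumour Treg, against 8.58 to 8.92 on the 9 other arrays. Lmna, lamin A/C of the nuclear envelope, passed on 2 of 5 detected probes, with 1.37 ± 0.24 (adjusted p = 0.038; 0.067 with the block) and 1.10 ± 0.17 (adjusted p = 0.0188). The 5 Lmna probes ran from 1.10 to 1.69, and the brightest gave 1.41 ± 0.50 (adjusted p = 0.588), where the tumour effect was 3.07 ± 0.35 in Treg and 1.66 ± 0.35 in Tconv (adjusted p = 0.0331 in Tconv), and 2.37 ± 0.35 in CD8 cells (adjusted p = 0.0027). On the 2 called Lmna probes, both dim, a rise was thus called in Treg only, and on the brightest it was called in Tconv and CD8 cells as well. The Tconv effect on the 2 called probes was 0.44 ± 0.17 and -0.05 ± 0.12 (adjusted p = 0.398 and 0.971). The first of these was detected on 2 tumour Tconv arrays and on 0 of spleen Tconv. Each of these 5 genes lost its call on some probe without at least 1 array: of the 12 arrays left out, Snx9 was called without 2, Piwil2 without 6, Neb without 1, Gm2a without 0, and the 2 Lmna probes without 0 and 3.

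**Figure D2:**
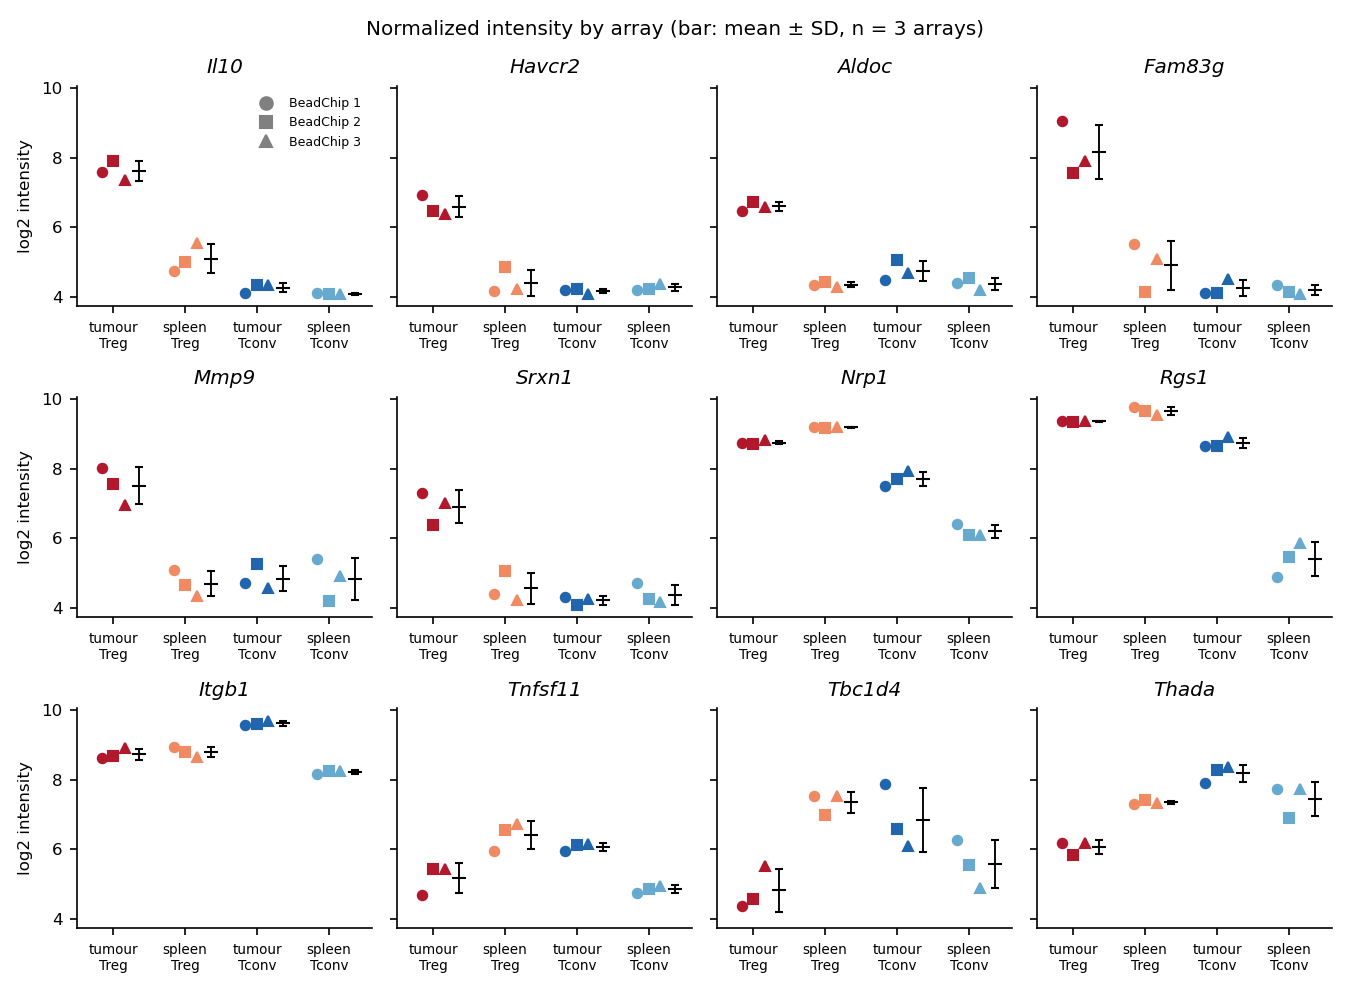
Log2 intensity of 12 genes on each array of tumour Treg, spleen Treg, tumour Tconv and spleen Tconv, with a symbol for each BeadChip and the mean ± SD of 3 arrays beside them. In the first 6 panels tumour Treg stands above the 3 other groups, in Nrp1, Rgs1 and Itgb1 tumour Tconv stands above spleen Tconv while Treg differ little, and in Tbc1d4 and Thada tumour Treg stands below spleen Treg.

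The 11 genes with a lower effect in Treg did not share 1 shape. For 5 genes (Nrp1, Rgs1, Itgb1, Arhgap26 and, on 1 probe, Hspa1a) the tumour effect was a called rise in Tconv with no call in Treg. For 5 others (Zfp608, Sh3bgrl2, Gm4956, Thada and Tbc1d4) it was a called fall in Treg with no call in Tconv, and Tnfsf11 moved past the test in opposite directions. In CD8 cells 5 of the 13 probes were called, all as rises, and they belong to Rgs1, Nrp1 and Itgb1.

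Nrp1 encodes neuropilin 1, a semaphorin coreceptor that in mice marks Treg made in the thymus. It read 8.73, 8.72 and 8.82 in tumour Treg, 9.20, 9.19 and 9.22 in spleen Treg, 7.51, 7.69 and 7.93 in tumour Tconv and 6.41, 6.09 and 6.09 in spleen Tconv. All Treg arrays lay above all Tconv arrays, but the gap of Treg over Tconv was 1.04 ± 0.18 in the tumour and 3.00 ± 0.18 in the spleen. The difference of tumour effects was -1.96 ± 0.26 (adjusted p = 0.00385) and on the other probe -2.03 ± 0.19 (adjusted p = 0.000553). With median scaling the brighter Nrp1 probe lost the call (adjusted p = 0.113) and the other kept it (0.0441). CD8 cells had a tumour rise of 2.20 ± 0.18 on the brighter probe. The Foxp3 probe that separates Treg was at 4.16, 4.36 and 4.17 in the same tumour Tconv samples.

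Rgs1, a regulator of G protein signalling that limits chemokine responses, read 9.37, 9.34 and 9.39 in tumour Treg, 9.78, 9.67 and 9.54 in spleen Treg, 8.65, 8.66 and 8.90 in tumour Tconv and 4.88, 5.45 and 5.86 in spleen Tconv. Of these 4 groups spleen Tconv lay apart, by more than 2 log2 units. The gap of Treg over Tconv was 0.63 ± 0.31 in the tumour (adjusted p = 0.44) and 4.26 ± 0.31 in the spleen (adjusted p = 1.58e-06). The difference was -3.63 ± 0.43 (adjusted p = 0.0016), a second Rgs1 probe gave -2.33 ± 0.27 (adjusted p = 0.0016) and the third -2.28 ± 0.42 (adjusted p = 0.0546; 0.049 with the replicate block). The CD8 tumour effect was 2.24 ± 0.31.

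Itgb1, the integrin beta 1 chain of receptors for matrix and VCAM-1, read 8.63, 8.68 and 8.91 in tumour Treg, 8.96, 8.81 and 8.66 in spleen Treg, 9.58, 9.61 and 9.69 in tumour Tconv and 8.16, 8.25 and 8.26 in spleen Tconv. The order of the cell types turned round, with Treg minus Tconv at -0.89 ± 0.13 in the tumour (adjusted p = 0.00124) and at 0.58 ± 0.13 in the spleen (adjusted p = 0.0388). The difference was -1.47 ± 0.19 (adjusted p = 0.00294), and with median scaling the call was lost (adjusted p = 0.345). A dimmer Itgb1 probe gave -2.14 ± 0.65 (adjusted p = 0.389).

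Hspa1a, an inducible heat shock protein of the HSP70 family with the near-identical copy Hspa1b, passed on 1 of 3 probes. That probe read 4.40, 4.19 and 4.39 in tumour Treg, 4.25, 4.13 and 4.29 in spleen Treg, 5.90, 6.86 and 6.55 in tumour Tconv and 4.28, 4.27 and 4.08 in spleen Tconv, with a difference of -2.13 ± 0.25 (adjusted p = 0.0016). Tumour Tconv stood alone, at least 4.53-fold above spleen Tconv, where it was not detected. On the brightest Hspa1a probe tumour Treg rose as well, by 1.11 ± 0.18 against 2.37 ± 0.18 in Tconv, with a difference of -1.25 ± 0.25 (adjusted p = 0.0819). The CD8 tumour effect was a called rise of 1.63 ± 0.18 on this probe (adjusted p = 0.000253) and 0.13 ± 0.18 on the probe past the test. The third Hspa1a probe, near the floor, gave a difference of the other sign, 0.11 ± 0.38. Arhgap26, a GTPase activating protein, read 6.07, 6.95 and 7.00 in tumour Treg, 6.55, 7.02 and 6.70 in spleen Treg, 8.21, 8.13 and 8.07 in tumour Tconv and 6.44, 5.51 and 6.40 in spleen Tconv. Its difference was -2.10 ± 0.36 (adjusted p = 0.037; 0.0689 with the replicate block and 0.26 with median scaling). The call held in only 3 of the 12 fits that each left out 1 array.

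Tnfsf11 encodes RANKL, a cytokine of the TNF family made by activated T cells. It read 4.67, 5.43 and 5.42 in tumour Treg, 5.94, 6.57 and 6.72 in spleen Treg, 5.94, 6.11 and 6.15 in tumour Tconv and 4.73, 4.85 and 4.95 in spleen Tconv. It fell in tumour Treg (-1.23 ± 0.25, adjusted p = 0.0155) and rose in tumour Tconv (1.22 ± 0.25, adjusted p = 0.0283), the only probe of the 99 called in both that moved in opposite directions. The difference was -2.46 ± 0.36 (adjusted p = 0.0102), with -2.47, -2.40 and -2.50 on the 3 BeadChips. With median scaling the adjusted p was 0.0783.

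Among the genes that fell in tumour Treg, Tbc1d4, a Rab GTPase activating protein of glucose transporter traffic, had the largest difference of all 26 probes, -3.82 ± 0.67 (adjusted p = 0.038). It read 4.36, 4.56 and 5.52 in tumour Treg, 7.53, 7.00 and 7.53 in spleen Treg, 7.87, 6.59 and 6.09 in tumour Tconv and 6.27, 5.55 and 4.88 in spleen Tconv. Tumour Treg lay below every array of spleen Treg and tumour Tconv, 1 array overlapped with spleen Tconv, and the Tconv values were widely spread. The call was lost in 9 of the 12 fits that each left out 1 array (adjusted p up to 0.122), and dimmer Tbc1d4 probes gave -1.37 ± 0.29 and -0.87 ± 0.39. Thada, a gene best known from thyroid adenoma breakpoints, read 6.18, 5.84 and 6.18 in tumour Treg, 7.31, 7.41 and 7.32 in spleen Treg, 7.92, 8.27 and 8.36 in tumour Tconv and 7.72, 6.89 and 7.75 in spleen Tconv. Its difference was -2.01 ± 0.34 (adjusted p = 0.0315; 0.305 with median scaling), and a dimmer Thada probe near the floor gave -0.24 ± 0.26. The call of the brighter Thada probe held in 5 of the 12 fits that each left out 1 array.

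Zfp608, a zinc finger protein, read 4.11, 4.10 and 4.29 in tumour Treg, 5.37, 5.32 and 5.23 in spleen Treg, 4.25, 4.68 and 4.13 in tumour Tconv and 4.17, 4.11 and 4.12 in spleen Tconv. It stood above the floor mainly in spleen Treg, and its difference was -1.36 ± 0.19 (adjusted p = 0.00746), kept without each of the 12 arrays, while another Zfp608 probe gave -0.07 ± 0.16. Sh3bgrl2, a small thioredoxin-fold protein, was detected in spleen Treg alone among the 4 groups, at 4.79, 4.99 and 4.97, at least 1.62-fold above tumour Treg. Its difference was -0.82 ± 0.14 (adjusted p = 0.037), and another Sh3bgrl2 probe gave -0.29 ± 0.14. The call held in only 1 of the 12 fits that each left out 1 array (adjusted p up to 0.108). Gm4956, annotated as a transcribed pseudogene, passed on 1 of 2 probes, with -2.61 ± 0.28 (adjusted p = 0.00145). On that probe it read 5.78, 4.83 and 5.41 in tumour Treg, 7.84, 8.03 and 8.26 in spleen Treg and 4.17 to 4.60 on the 6 Tconv arrays. On the brighter Gm4956 probe the tumour effect was -2.29 in Treg and -1.65 in Tconv, with a difference of -0.65 ± 0.62 (adjusted p = 0.986).

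**Figure D3:**
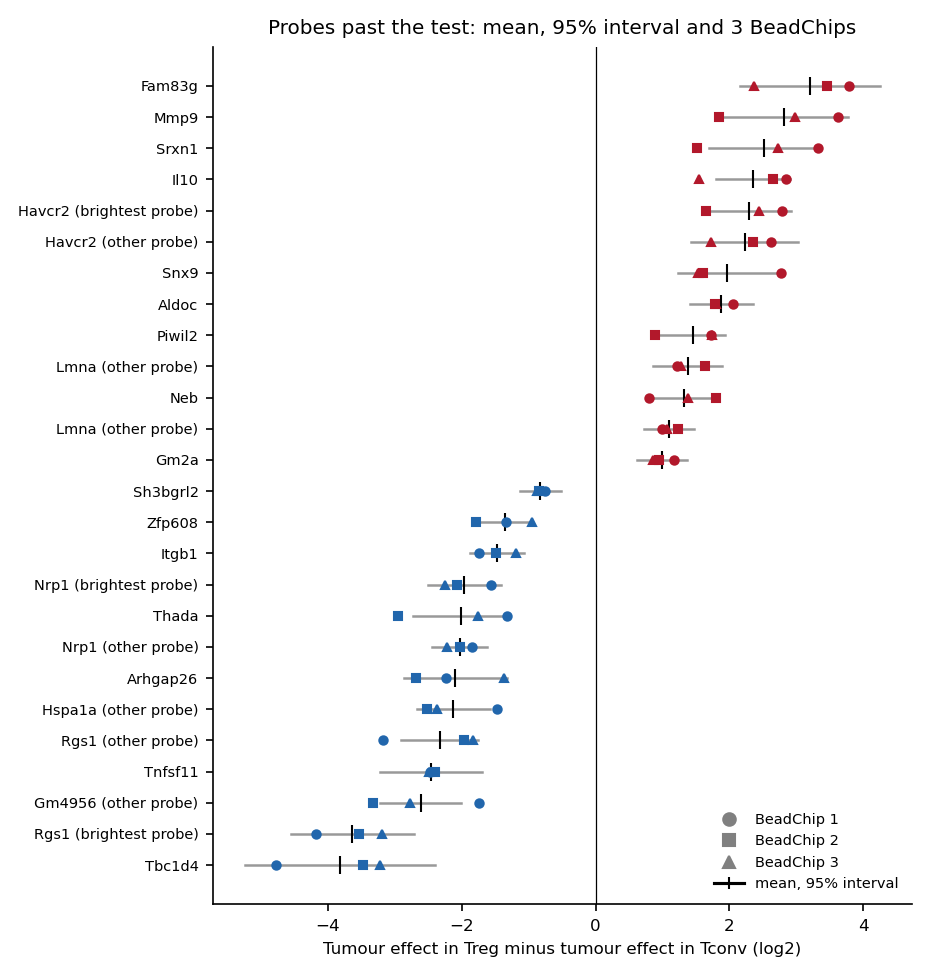
The difference of tumour effects (log2, Treg minus Tconv) of the 26 probes past the test, as the mean with its 95% interval and the value on each of the 3 BeadChips. Every symbol lies on the side of its mean, from -3.82 for Tbc1d4 to 3.20 for Fam83g, and the 3 BeadChips lie closest together for Sh3bgrl2 and Tnfsf11.

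**Figure D4:**
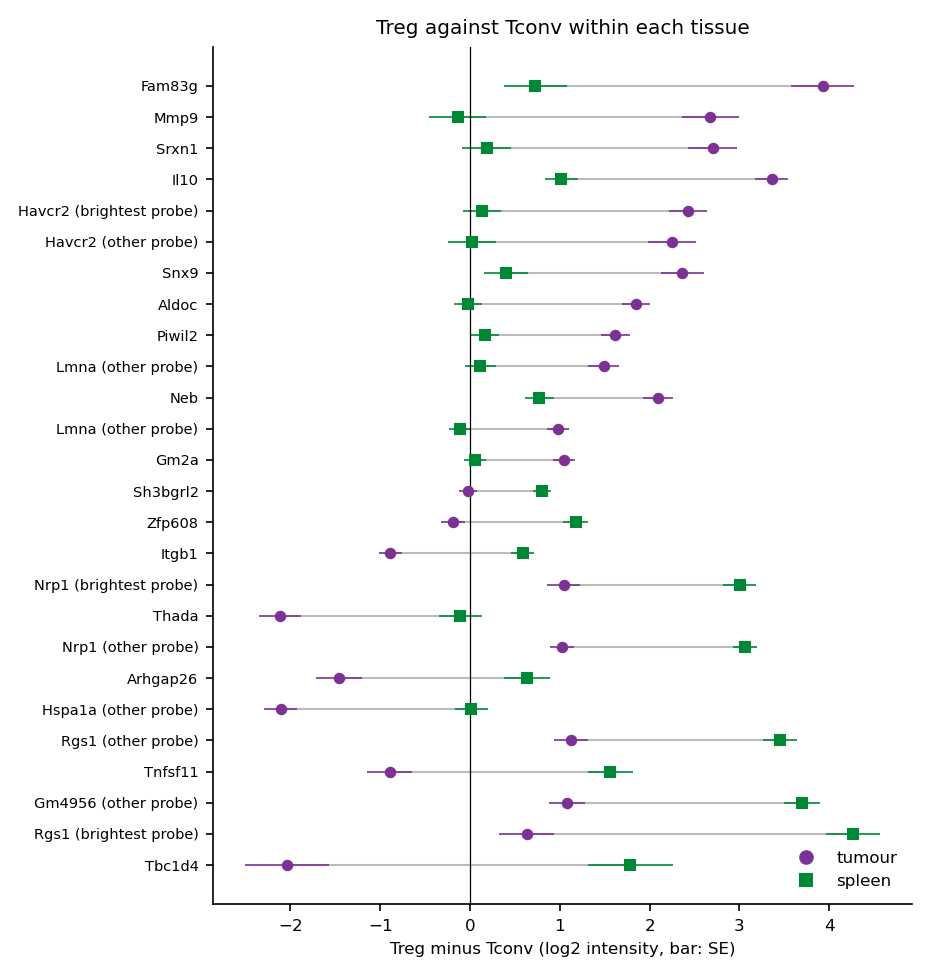
The same 26 probes as Treg minus Tconv (log2 intensity, bars of 1 SE) within the tumour and within the spleen. For the upper 13 the tumour value is the higher one, for Rgs1, Nrp1 and Gm4956 a large gap in the spleen is smaller in the tumour, and Itgb1 is below 0 in the tumour and above 0 in the spleen.

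Promoter windows of RefSeq (GRCm38.p6, 250 bases before to 50 after the first listed start) were held for 13 of the 22 genes. Those of Il10, Mmp9, Snx9, Piwil2, Neb, Rgs1, Arhgap26, Zfp608 and Gm4956 were not used here. Motifs were searched as exact letters on both strands: TGANTCA (AP-1), ACGTG (the core of hypoxia response elements), TGACGTCA (cyclic AMP response), TGACNNNGC (antioxidant response) and GAANNTTC (heat shock). No match of 1 motif overlapped another in the sequences printed. TGANTCA was present in 3 of 6 promoters of genes with a higher effect in Treg (Havcr2, Lmna and Srxn1) and in 0 of 7 of those with a lower effect, against 7.93% of 27025 mouse promoters. ACGTG was in 2 of 6 (Aldoc and Havcr2) and 2 of 7 (Thada and Tnfsf11), against 19.7%. TGACNNNGC was in 1 of 6 (Srxn1) and 2 of 7 (Itgb1 and Sh3bgrl2), against 12.5%. GAANNTTC was in 1 of 6 (Havcr2) and 1 of 7 (Hspa1a), against 7.95%, and TGACGTCA in 0 of 6 and 1 of 7 (Thada), against 1.88%. A match is a description of letters and not a site of binding.

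The promoters of 3 genes with a called rise in tumour Treg and none in Tconv or CD8 cells (Havcr2, chr11:46454681-46454980, plus strand; Aldoc, chr11:78322823-78323122, plus strand; Srxn1, chr2:152105274-152105573, plus strand) and of 2 with the rise in Tconv (Tnfsf11, chr14:78307994-78308293, minus strand; Hspa1a, chr17:34972107-34972406, minus strand) are shown. They are a choice among the promoters that hold a match to the motifs above. The promoters of Lmna, Thada, Itgb1 and Sh3bgrl2 also hold a match and are not printed, and that of Nrp1 holds none. Each printed promoter is written 5′ to 3′ on the gene's strand with the matches in capitals.
Havcr2: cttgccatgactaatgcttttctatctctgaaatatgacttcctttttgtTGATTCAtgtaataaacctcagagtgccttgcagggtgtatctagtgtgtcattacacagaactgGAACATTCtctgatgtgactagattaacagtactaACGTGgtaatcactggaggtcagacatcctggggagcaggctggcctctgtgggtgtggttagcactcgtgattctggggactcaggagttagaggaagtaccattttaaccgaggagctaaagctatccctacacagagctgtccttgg
Aldoc: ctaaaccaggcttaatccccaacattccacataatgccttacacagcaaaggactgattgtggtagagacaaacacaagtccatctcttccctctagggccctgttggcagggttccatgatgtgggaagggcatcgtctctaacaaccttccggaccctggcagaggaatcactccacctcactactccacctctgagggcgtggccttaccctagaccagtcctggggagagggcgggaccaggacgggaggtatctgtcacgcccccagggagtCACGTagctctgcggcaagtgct
Srxn1: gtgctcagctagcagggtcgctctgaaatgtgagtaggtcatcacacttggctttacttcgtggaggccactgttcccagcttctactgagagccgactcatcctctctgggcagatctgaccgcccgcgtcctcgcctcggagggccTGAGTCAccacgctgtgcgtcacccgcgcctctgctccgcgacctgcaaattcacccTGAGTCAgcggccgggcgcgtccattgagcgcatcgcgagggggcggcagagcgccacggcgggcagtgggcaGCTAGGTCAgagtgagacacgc
Tnfsf11: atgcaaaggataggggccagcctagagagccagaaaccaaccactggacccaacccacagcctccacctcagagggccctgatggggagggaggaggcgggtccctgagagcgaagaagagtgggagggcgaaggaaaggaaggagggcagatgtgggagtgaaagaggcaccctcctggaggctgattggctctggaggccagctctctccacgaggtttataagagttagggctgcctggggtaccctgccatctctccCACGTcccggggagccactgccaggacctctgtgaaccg
Hspa1a: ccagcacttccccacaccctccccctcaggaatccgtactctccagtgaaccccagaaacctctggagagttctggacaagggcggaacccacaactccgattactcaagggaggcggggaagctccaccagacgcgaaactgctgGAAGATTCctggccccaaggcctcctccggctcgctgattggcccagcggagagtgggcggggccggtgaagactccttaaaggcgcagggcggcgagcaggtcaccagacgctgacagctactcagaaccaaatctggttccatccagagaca

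Gene lists of T cell programmes were then read against all genes, where the median difference was 0.01, with quartiles of -0.21 and 0.23, and where 10 genes (0.0686%) were called higher and 9 (0.0617%) lower. Counts of members above or below 0 stand against 7484 of all 14581 genes above 0. Lists and their members were chosen with earlier results of these data known, and their counts and medians are a description. Counts of members that rose or fell in 1 cell type stand against 247 of all genes that rose (1.69%) and 102 that fell (0.7%) in Treg, 349 in all (2.39%), and 140 (0.96%) and 25 (0.171%) in Tconv, 165 in all (1.13%).

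Of 24 measured genes of effector Treg, 2 were called higher (Il10 and Havcr2), 0 lower and 22 did not pass, with a median of 0.20 and an upper quartile of 1.51. In Treg 11 of the 24 rose in the tumour, and in Tconv 2 did. The next members were chosen after their values were seen. Fgl2, a secreted immunosuppressive protein, gave 1.85 ± 0.37 (adjusted p = 0.0819), and passed with no background correction, an offset of 50, the authors' normalized table or median scaling (adjusted p = 0.00145, 0.004, 0.00138 and 0.0335). Ccr8, a chemokine receptor of tumour Treg, gave 1.72 ± 0.37 (adjusted p = 0.108) and passed with an offset of 50 or median scaling (adjusted p = 0.0395 and 0.0441). Neither Fgl2 nor Ccr8 passed with the replicate block. Il1r2, a decoy receptor for interleukin 1, gave 2.37 ± 0.59 (adjusted p = 0.213). At the other end Maf, a transcription factor that drives Il10 in several T cell types, rose in both, by 1.14 in Treg and 1.87 in Tconv, with a difference of -0.73 ± 0.30 (adjusted p = 0.725), while a dimmer Maf probe gave 0.58 ± 0.38.

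Of 17 measured genes of the Treg core, 0 were called higher, 1 lower (Nrp1) and 16 did not pass, with a median of -0.52 and 12 members below 0. In Treg 4 rose and 2 fell in the tumour, and in Tconv 6 rose and 0 fell. Ctla4, an inhibitory receptor that Treg hold at a high level, rose in both, to 8.03, 8.25 and 8.47 in tumour Treg, against 7.31, 7.42 and 7.36 in spleen Treg, and to 5.90, 6.54 and 6.02 in tumour Tconv, against 4.19, 4.27 and 4.70 in spleen Tconv. Its rise was 0.89 ± 0.18 in Treg and 1.77 ± 0.18 in Tconv, with a difference of -0.88 ± 0.26 (adjusted p = 0.361) that was 0.02 with no background correction and 0.05 with the authors' table. Of the rest, chosen after their values were seen, Tnfrsf18 (GITR) rose by 0.94 ± 0.21 in Treg and 1.95 ± 0.21 in Tconv (adjusted p of the difference = 0.378). Il2rb, a chain of the interleukin 2 receptor, gave -1.02 ± 0.28, and Icos, a costimulatory receptor, -0.07 ± 0.25, neither past the test. Izumo1r, the folate receptor 4 of Treg, gave -1.16 ± 0.24 (adjusted p = 0.1) and fell by 1.72 ± 0.17 in Treg. It passed with no background correction, an offset of 50 or the authors' table, but not with the replicate block.

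Of 26 measured genes of glycolysis and the response to low oxygen, 1 was called higher (Aldoc), 0 lower and 25 did not pass, with a median of 0.63, 22 members above 0 and medians of 0.43, 0.82 and 0.54 on the 3 BeadChips. In the tumour 15 of the 26 rose in Treg and 4 in Tconv, while the median tumour effect was 0.99 in Treg and 0.60 in Tconv. Slc16a3, a lactate exporter, gave 1.78 ± 0.36 (adjusted p = 0.0819), and passed with the replicate block, median scaling, no background correction, an offset of 50 or the authors' table (adjusted p = 0.049, 0.0121, 0.0368, 0.0213 and 0.0245). A dimmer Slc16a3 probe gave -0.27 ± 0.20. Slc2a1, the glucose transporter GLUT1, gave 0.98 ± 0.27, Pgk1, a glycolytic kinase, 1.10 ± 0.30, and Ndrg1, a hypoxia-induced gene, 1.58 ± 0.60, none past the test. A dimmer Ndrg1 probe gave 1.68 ± 0.34 (adjusted p = 0.0819) and passed with the replicate block, no background correction, an offset of 50 or the authors' table (adjusted p = 0.0278, 0.00863, 0.0119 and 0.00901). Gapdh, Ldha and Tpi1, enzymes of the same pathway, rose in both cell types and gave 0.05 ± 0.20, 0.11 ± 0.20 and 0.38 ± 0.34. Pfkfb4, a regulator of glycolysis, was the lowest at -1.96 ± 0.91 (adjusted p = 0.802). These list members were chosen after their values were seen.

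Of 17 genes of the naive state and lymphoid homing, 0 passed in either direction, with a median of -0.79 and 14 members below 0. In Treg 8 fell and 1 rose in the tumour, and in Tconv 1 fell. Bach2, a transcription repressor of resting lymphocytes, read 4.40, 4.93 and 6.21 in tumour Treg, 8.41, 7.45 and 7.76 in spleen Treg, 8.62, 7.80 and 7.63 in tumour Tconv and 8.04, 7.81 and 7.96 in spleen Tconv. Tumour Treg lay below every other array. The difference of Bach2 was -2.78 ± 0.53 (adjusted p = 0.072, and 0.117 with the replicate block). It passed with an intensity trend and robust prior (0.0258) or with probes detected on all 3 arrays of a group (0.0499). It also passed without tumour Treg replicate 3 (0.00301), the array at 6.21 and the highest of tumour Treg. Without any other single array of Treg or Tconv it did not pass (adjusted p from 0.0884 to 0.18).

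Of 20 cytotoxic and type 1 effector genes 0 passed, with a median of -0.23 and 15 members below 0, and 9 rose in Tconv and 5 in Treg. Gzmk, a granzyme, read 4.12, 4.27 and 4.07 in tumour Treg, 4.27, 4.21 and 4.21 in spleen Treg, 7.16, 7.41 and 7.52 in tumour Tconv and 4.69, 5.09 and 4.55 in spleen Tconv. In tumour CD8 cells it read 8.93, 8.16 and 7.14, against 4.14, 5.51 and 4.77 in spleen CD8 cells, and the tumour rise was 3.27 ± 0.37 there and 2.59 ± 0.37 in Tconv. Among Treg and Tconv groups tumour Tconv was the high one, and the difference was -2.67 ± 0.52 (adjusted p = 0.0761; 0.101 with the replicate block). It passed with the 12 arrays of Treg and Tconv alone (0.00133) or with median scaling (0.0292). Of 12 helper cytokines and follicular genes 1 was called lower (Tnfsf11), with a median of -0.66. Of 24 genes of the antigen receptor response 1 was called lower (Rgs1), with a median of 0.11, and of 15 chemokine receptors and adhesion molecules 1 was called lower (Itgb1), with a median of 0.13. Of 11 inhibitory receptors 1 was called higher (Havcr2), with a median of 0.00.

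Among 12 chemokines 0 passed, with a median of 0.07. Ccl4, an inflammatory chemokine, read 9.89, 8.95 and 9.20 in tumour Treg, 4.85, 5.01 and 4.27 in spleen Treg, 5.88, 5.92 and 4.62 in tumour Tconv and 4.19, 4.14 and 4.29 in spleen Tconv. In tumour CD8 cells it read 9.89, 9.98 and 9.27, against 5.19, 7.99 and 7.67 in spleen CD8 cells, a called rise of 2.76 ± 0.56 (adjusted p = 0.028). Tumour Treg overlapped with tumour CD8 cells and with no spleen or Tconv group. The difference between Treg and Tconv was 3.38 ± 0.80 (adjusted p = 0.169; 0.199 with the replicate block), which passed with the 12 arrays alone (0.0291). A dimmer Ccl4 probe gave 0.91 ± 0.29. Of 17 cytokine receptor and feedback genes 0 passed, with a median of -0.28. Bcl2, an inhibitor of apoptosis, read 7.02, 5.69 and 6.75 in tumour Treg, 9.04, 8.69 and 8.48 in spleen Treg and 7.75 to 8.43 on the 6 Tconv arrays. Its difference was -1.94 ± 0.39 (adjusted p = 0.0802; 0.134 with the replicate block). It passed with no background correction (0.0393), an offset of 50 (0.0474), the authors' table (0.0349) or an intensity trend and robust prior (0.0456). Of 13 sterol and lipid genes 0 passed, with a median of 0.34. Idi1, an isomerase of sterol synthesis, gave 1.16 ± 0.24 (adjusted p = 0.0819; 0.042 with the authors' table and 0.0526 with the replicate block). It fell by 0.78 ± 0.17 in Tconv with no call in Treg.

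No member passed among 16 cell cycle genes (median 0.34), 14 interferon response genes (0.01), 19 chaperone and unfolded protein genes (0.04) or 13 genes of TGF-beta response and tissue residence (-0.18). Their members with the smallest p were Cdc20 (1.18 ± 0.62), Irf8 (1.95 ± 0.65), the brightest Hspa1a probe and Ctla4. No ribosomal protein gene passed among 13, with a median of -0.20 and Rps4x at -0.47 ± 0.16.

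**Figure D5:**
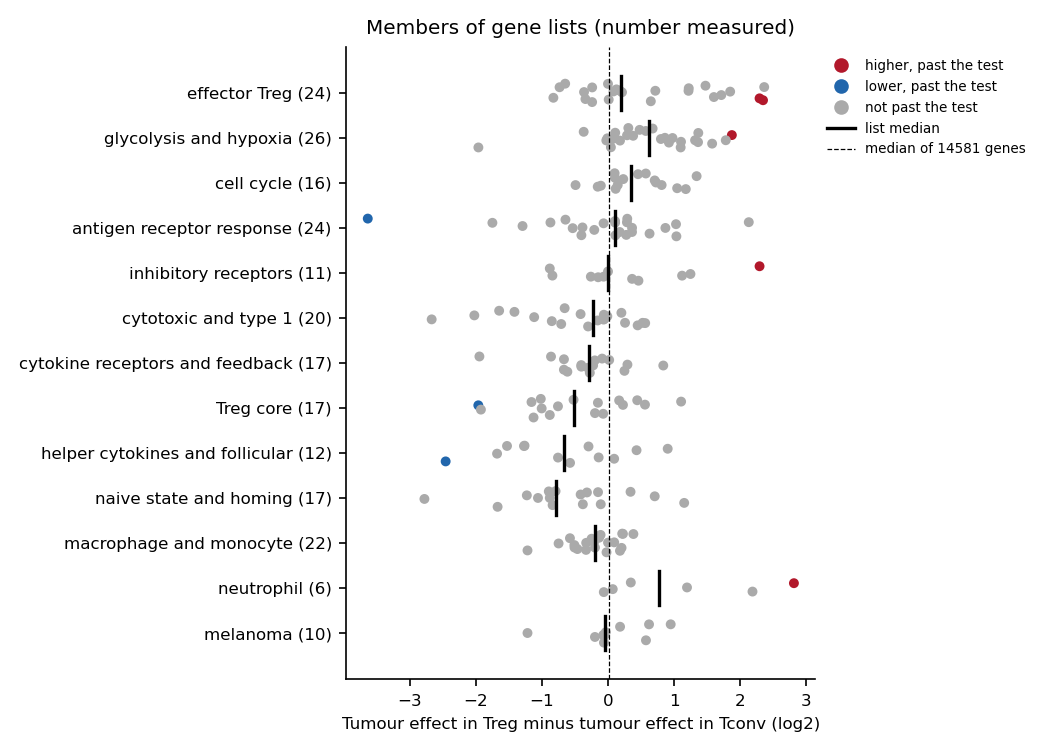
Each point is 1 measured gene of a list, at its difference of tumour effects (log2, Treg minus Tconv), with the list median as a bar and the median of all 14581 genes as a dashed line. Glycolysis and hypoxia genes lie mostly to the right (median 0.63), naive state and homing genes mostly to the left (median -0.79), and 8 points are coloured for a call, with Havcr2 in 2 of the lists.

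Lists of other cells held 1 call in all, Mmp9. Its list of 6 measured neutrophil markers had a median of 0.77, with 5 members above 0. The median tumour effect of that list was 0.74 in Treg and -0.03 in Tconv. No marker passed among 22 of macrophages and monocytes (median -0.20), 10 of melanoma (-0.04), 11 of dendritic cells (0.20), 8 of red cells and platelets (-0.09), 6 of B and plasma cells (0.03), 6 of NK cells (-0.06), 7 of stroma and endothelium (0.08) or 4 of the CD8 lineage (0.04). The summed intensity of melanoma markers was 800 to 1147 in tumour Treg and 238 to 285 in spleen Treg, and 770 to 1418 in tumour Tconv and 209 to 267 in spleen Tconv. That of red cell and platelet markers was 161 to 1325 in tumour Treg and 3535 to 12104 in spleen Treg, and 228 to 1526 in tumour Tconv and 2811 to 12369 in spleen Tconv. Tumour and spleen thus differed in such RNA in both cell types, and its part in single values was not tested. Gpnmb, which macrophages and melanoma cells share, rose by 3.37 ± 0.31 in Treg and 4.59 ± 0.31 in Tconv, with a difference of -1.22 ± 0.44 (adjusted p = 0.605) and 0.03, -1.70 and -1.97 on the 3 BeadChips. Its other detected probes gave 0.75 ± 0.25 (adjusted p = 0.466), with 1 sign on the 3 BeadChips, and -0.21 ± 0.29, so that the probes of Gpnmb differ in sign. The members with the smallest p in the other lists were Fcgr3 (-0.51 ± 0.32), Zbtb46 (0.97 ± 0.28), Pf4 (-0.46 ± 0.63), Fcer2a (0.55 ± 0.72), Acta2 (0.32 ± 0.24) and Klrk1 (-1.12 ± 0.46), none past the test.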

How the data were processed

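Intensities were used as deposited: per the file headers they are mean bead signals that had not been normalized. A detection p-value was deposited beside each one. A value table that the authors normalized, in linear intensity units and with the procedure not given in the sources used here, served as an alternative. Background correction used neqc (limma 3.58.1, R 4.3.3) with an offset of 16, followed by quantile normalization and log2. Gene names came from the platform annotation, updated for 28620 probes through the Entrez number and for 2637 through an accession, kept for 4527 and absent for 10453. All 18 arrays entered lmFit and eBayes with a mean for each of 6 groups (12 residual degrees of freedom), and the fit was tested on simulated data.

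The replicate number is the BeadChip, which pairs the samples by the labels. Residuals of same-numbered arrays correlated by 0.0532 on average (4 of 18 pairs above 0.1), and the number was left out of the model and tried as a block. Named are the sorting markers, up to 12 rises and 12 falls past the test with 1 sign on all BeadChips, and of each of 26 lists up to 4 members past the test or the 1 with the smallest p, beside genes marked as chosen after their values were seen and Lmna and Gm4956, called on a dimmer probe only. The comparison and the lists were chosen with earlier results of these data known. Alternatives were median scaling, no background correction, an offset of 50, the authors' table, other detection filters, 1 probe for each gene, the 12 arrays alone, an intensity trend with a robust prior, and leaving out arrays or BeadChips.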

Additional observations from a re-analysis of the deposited data

Results flagged for a closer look

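The 26 probes on which the tumour effect differed between Treg and Tconv, by limma's test of the difference itself, are listed here with that difference on the log2 scale. Higher in Treg were Fam83g (3.20), Mmp9 (2.81), Srxn1 (2.52), Il10 (2.35), Havcr2 (2.29 and 2.23 on its 2 probes), Snx9 (1.97), Aldoc (1.88), Piwil2 (1.45), Lmna (1.37 and 1.10 on 2 of its probes), Neb (1.32) and Gm2a (0.99). Lower in Treg were Sh3bgrl2 (-0.82), Zfp608 (-1.36), Itgb1 (-1.47), Nrp1 (-1.96 and -2.03 on its 2 probes), Thada (-2.01), Arhgap26 (-2.10), Hspa1a (-2.13 on 1 probe), Rgs1 (-3.63 and -2.33 on 2 of its probes), Tnfsf11 (-2.46), Gm4956 (-2.61 on 1 probe) and Tbc1d4 (-3.82).

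On 13 of the 26 probes the transcript was detected on no array of at least 1 of the 4 groups, so that the size of the difference depends on the floor there. Without each of the 12 arrays in turn, 12 probes of 10 genes stayed past the test every time: Il10, the brighter Havcr2 probe, Aldoc, Zfp608, Itgb1, both probes of Nrp1, Hspa1a, 2 probes of Rgs1, Tnfsf11 and Gm4956. The other 14 lost their call without at least 1 array. With each whole BeadChip left out in turn, 0 of the 26 stayed past the test every time.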

How the results depend on the processing

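None of the 26 probes past the test changed sign under any of the alternatives that tested it, and the number of calls rests on 3 arrays in each group. The alternatives reuse the arrays on which the probes were picked, so that the kept sign is a description. Of 51 named probes followed, 5 changed sign under some alternative, none of them past the test: the brightest Foxp3 probe, Ctla4, Cd4, Fcer2a and Itgam. Against 26 probes, the fit with the replicate block (the BeadChip number as a term, which pairs the samples) called 25, of which 21 were the same probes. The block ended the calls of Snx9, Neb, Gm2a, 1 Lmna probe and Arhgap26, and it changed no other call among the 26. Median scaling called 52 probes (43 higher and 9 lower, 82.7% higher against 50% before, with the median of all probes at 0.12), 20 of them the same. It ended the calls of Itgb1, the brighter Nrp1 probe, Thada, Tnfsf11, Arhgap26 and Gm2a. No background correction called 43 probes (22 of the same), an offset of 50 called 49 (all 26 among them), and the authors' normalized values called 44 (23 of the same). Only probes detected in each of the 4 groups gave 12, all among the 26, by construction without genes at the floor in a group. The fits with no detection filter, probes detected on all 3 arrays of a group, 1 probe for each gene, the 12 arrays alone and an intensity trend with a robust prior called 27, 25, 20, 34 and 27. The 12 arrays alone ended the calls of Fam83g, Mmp9, Snx9, Neb, Gm2a, Sh3bgrl2, Arhgap26 and Tbc1d4, and no detection filter those of the dimmer Havcr2 probe, Snx9, Arhgap26 and Tbc1d4. Leaving out 1 array gave 14 to 36 probes, with 14 to 17 without spleen Treg replicate 1 or 3, tumour Tconv replicate 2 or 3 or any of the 3 spleen Tconv arrays. Leaving out a whole BeadChip gave 7 probes without replicate 1 (1 higher and 6 lower, 5 of the same) and 0 without replicate 2 or 3, by limma, where 1192 and 1234 had an unadjusted p under 0.05. These fits leave 2 arrays in a group. The 5 were the dimmer Nrp1 probe, the brightest Rgs1 probe, Hspa1a, Tnfsf11 and Gm4956, all lower. Dim genes are the least certain, since the floor compresses their differences.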

Other observations

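Genes of the antigen receptor response moved in several ways. Egr3, a transcription factor induced by the antigen receptor, gave -0.51 ± 0.37 in Treg with no call and fell by 2.64 ± 0.37 in Tconv, a difference of 2.13 ± 0.52 (adjusted p = 0.19 by limma). Crem, a cyclic AMP response factor, rose in both, by 3.09 ± 0.29 in Treg and 4.38 ± 0.29 in Tconv, with a difference of -1.29 ± 0.41 (adjusted p = 0.441 by limma), while its 2 dimmest probes gave 0.47 ± 0.39 and 0.27 ± 0.23. Tnfaip3, an inhibitor of NF-kappaB signalling, also rose in both, by 1.23 ± 0.20 in Treg and 1.87 ± 0.20 in Tconv, and its difference of -0.64 ± 0.28 did not pass. These 3 genes, and those named below, were chosen after their values were seen.

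Among chemokine receptors, Ccr2 gave 1.28 ± 0.31 and Ccr6 -1.29 ± 0.40 (0.01 ± 0.19 on a dimmer probe), and among inhibitory receptors Lag3 gave 1.25 ± 0.46, none past the test.

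Across the 22409 probes the tumour effects of Treg and Tconv correlated by 0.43 (Pearson's r, a description over probes, which are not independent replicates and whose arrays shared BeadChips). Of 5065 detected probes without a gene name, 7 passed when tested together with the named ones over 27474 probes, 2 higher and 5 lower, and the same fit called 26 named probes.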
